A study of Saccharomyces cerevisiae with 4 samples.

Results

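Genes for the factors of cytosolic protein synthesis and for the enzymes that charge tRNAs were followed among the transcripts bound by the mRNA export receptor Mex67. The set held 56 genes, chosen by gene symbol from the platform's probe annotation, of 5539 genes with a probe on the array. It comprised 36 translation factors, 17 cytosolic and 2 mitochondrial aminoacyl-tRNA synthetases, and DTD1, a deacylase that removes D-amino acids from tRNA. Each gene had 2 probes, 112 in all.

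RNA co-precipitated with zzMex67, a tagged Mex67, was hybridised against total RNA of Saccharomyces cerevisiae (budding yeast) on 4 arrays with 2 channels each, which form 1 group. Channel 2 held the precipitated RNA on arrays 1 and 2, and channel 1 held it on arrays 3 and 4. A code in the titles, whose meaning is not stated, joins arrays 1 and 3 and arrays 2 and 4, each with both channel assignments. The labels give no strain, growth condition, tag design or culture, so that the p-values cover the spread among the 4 arrays alone, and that spread may be technical. An untagged or mock control was not analysed here, and RNA that binds without Mex67 cannot be told apart from RNA that binds through it.

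Mex67 works as a dimer with Mtr2 and takes packaged mRNA through the nuclear pore. Translation starts when eIF2 brings the initiator tRNA to the small ribosomal subunit, and eIF2B recharges eIF2 with GTP. The elongation factor eEF1A then delivers the tRNAs that the synthetases have charged, eEF3 and eEF2 move the ribosome on, and eIF5A helps at stretches that are slow to translate. In growing yeast the mRNAs for many of these proteins are abundant.

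The deposited values are log10 ratios, given here as log2 ratios relative to the array median, which is the median over the named genes with a ratio on at least 3 arrays. A positive value means a ratio above the array median, not a ratio above equal shares in precipitated and total RNA. The medians subtracted were -1.71, 1.74, -3.71 and -1.61 on arrays 1 to 4, in log2. A higher ratio likely stands for a larger share in precipitated relative to total RNA, because the labels name the quantity a binding level. They do not state the direction. Ratios were present for 6.60% to 19.3% of 12800 probes per array. Arrays 2, 3 and 4 ranked features alike (Pearson's r = 0.756 to 0.889 across features for the 3 pairs), and array 1 stood apart (r = 0.127 to 0.239). Arrays of opposite channel assignment correlated above 0, so all were read as turned the same way, which the labels do not state. With arrays 3 and 4 turned against arrays 1 and 2, 0 of 596 features passed (limma; 1 at an unadjusted p under 0.05), so every call below rests on that reading. The count with turned signs follows from the same correlation and is not a separate check. A correlation above 0 could also come from a bias between the channels on arrays left unturned, which was not tested.

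Of the 56 genes, 11 had a ratio on at least 3 arrays and were tested (19.6%, against 8.99% of all genes), 10 had a ratio on 1 or 2 arrays, and 35 had none. A gene was called above or below the median at a Benjamini-Hochberg adjusted p under 0.05, over the 596 features tested (498 genes and 98 unnamed probes), in limma's moderated test of the mean against 0. HYP2, GCD6 and DTD1 were called above the median, which 22.5% of all features were. SES1, MES1 and MSF1 were called below it, as 25.2% of all features were. With 6 of 11 called (54.5%), against a background of 47.7%, the set as a whole was called about as often as any other feature. The median of the 11 means was -0.86 on the log2 scale, against -0.0047 over all features. Without array 1, 3 genes of the set were called above and 4 below, against 28.2% and 29.2% of all features. Centred within blocks of 400 consecutive probes, 2 were called above and 2 below, against 18% and 16.6%.

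**Figure D1:**
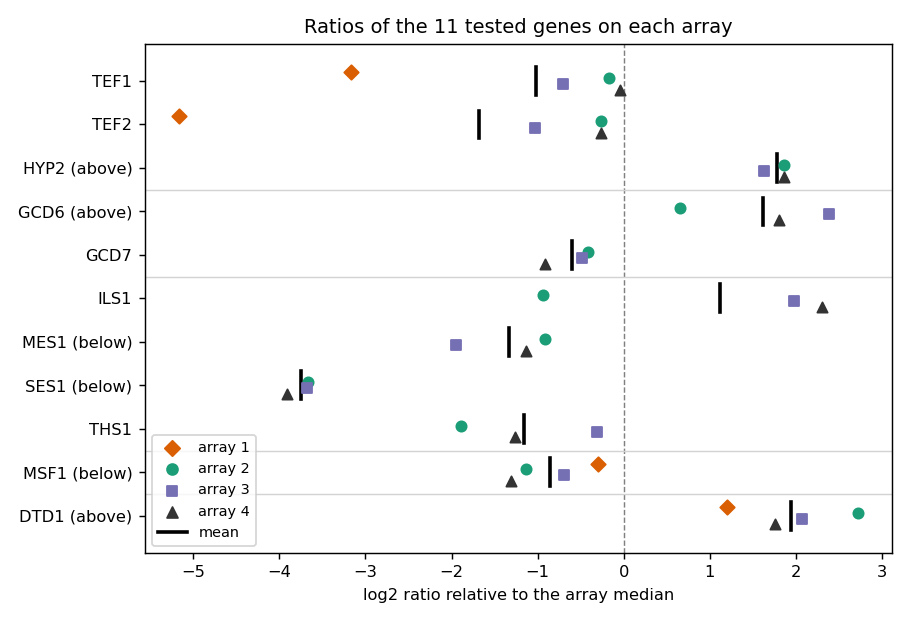
The log2 ratio relative to the array median (horizontal axis) of the 11 tested genes on each array. Symbols are arrays, the black bars are means over the arrays with a value, and grey lines separate elongation factors, eIF2B subunits, cytosolic synthetases, the mitochondrial synthetase MSF1 and the deacylase DTD1. SES1 lies near -3.75 on each of its 3 arrays, and array 1 sets TEF1 and TEF2 apart.

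Among the elongation factor genes, HYP2 lay above the array median and the eEF1A genes did not differ from it beyond the spread between arrays. HYP2, the gene of the eIF5A form made in air, had log2 ratios of 1.86, 1.63 and 1.86 on arrays 2, 3 and 4. All 3 lay above the median, close to each other. The mean of 1.79 ± 0.13 (SD, n = 3) was a 3.45-fold ratio relative to the median (limma, adjusted p = 0.00575). Its 2 probes differed by at most 0.14 on any array. ANB1, which codes for the closely related eIF5A form made at low oxygen, had no ratio on any array. The genes are closely related, and whether the HYP2 spots hold signal of both was not tested. Centred within blocks, HYP2 had 0.42 ± 0.37 (SD, n = 3) and its call ended (limma, adjusted p = 0.264). Without array 4 it also missed the threshold, at 1.75 (limma, adjusted p = 0.0512).

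TEF1 and TEF2 code for the same protein, eEF1A. TEF1 had log2 ratios of -3.17, -0.17, -0.70 and -0.05 on arrays 1 to 4, and TEF2 had -5.17, -0.27, -1.03 and -0.27. All 8 values lay below the median, near it on arrays 2 and 4 and far below it on array 1. The means were -1.02 ± 1.46 for TEF1 (SD, n = 4; limma, adjusted p = 0.190) and -1.68 ± 2.35 for TEF2 (SD, n = 4; limma, adjusted p = 0.174). Without array 1 they were -0.30 ± 0.35 and -0.52 ± 0.44 (SD, n = 3), and neither passed (limma, adjusted p = 0.296 and 0.130). On arrays 2, 3 and 4 TEF1 exceeded TEF2 by only 0.10, 0.33 and 0.22, a mean of 0.22 ± 0.11 (SD, n = 3), which is within the range of differences between the 2 probes of TEF1 alone (0.05 to 0.46). On array 1 they were 2.00 apart, with TEF2 measured there by 1 probe. The genes lie in different blocks of probes, and centred within blocks they were not close. TEF1 then had 0.95, 0.23 and 0.36 on arrays 2, 3 and 4, and TEF2 had -0.37, -3.29 and -1.41. Their block-centred means over 4 arrays were 0.05 and -2.96, and neither passed (limma, adjusted p = 0.933 and 0.0713). Genes of such close sequence can share signal on an array, which was not tested here because no probe sequences were used.

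EFB1, the exchange factor subunit that recycles eEF1A, had a ratio on array 1 only, at -3.16, beside the -3.17 of TEF1 there. The remaining elongation factor genes had no ratio: TEF4 and CAM1, of the eEF1B gamma subunit, EFT1 and EFT2, which both code for eEF2, and YEF3, which codes for eEF3.

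The eIF2B subunit genes GCD6 and GCD7 lay on opposite sides of the median. GCD6, the catalytic epsilon subunit, had log2 ratios of 0.65, 2.38 and 1.81 on arrays 2, 3 and 4. All were above the median, with array 2 the lowest. The mean was 1.61 ± 0.88 (SD, n = 3), a 3.06-fold ratio relative to the median (limma, adjusted p = 0.0333), and it rests on 1 of its 2 probes. The call ended without array 3 (mean 1.23; limma, adjusted p = 0.111) or array 4 (mean 1.52; limma, adjusted p = 0.126), and held when centred within blocks (mean 1.72; limma, adjusted p = 0.0370).

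GCD7, the regulatory beta subunit, had -0.41, -0.49 and -0.92 on the same arrays, all below the median. Its mean of -0.61 ± 0.27 (SD, n = 3) was not called (limma, adjusted p = 0.0940; 95% interval -1.22 to 0.01). On array 2 its probes lay on either side of the median, at 0.55 and -1.38. GCD6 exceeded GCD7 by 1.07, 2.87 and 2.73 on arrays 2, 3 and 4, differences that no centring by array can alter. Their mean was 2.22 ± 1.00 (SD, n = 3; exact sign-flip permutation test, two-sided, p = 0.25, the smallest that 3 arrays allow; the pair was compared after its values were seen). Of the other subunits, GCD1 (gamma) had -0.21 on array 2 only, and GCD2 and GCN3 had no ratio. Nor did SUI2, SUI3 and GCD11, the 3 subunits of eIF2.

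No other initiation factor gene had a ratio on 3 arrays. TIF1, of the RNA helicase eIF4A, had -0.46 on array 2 and -0.73 on array 4, and its duplicate TIF2 had no ratio. TIF34, a subunit of the scaffold factor eIF3, had -0.61 and -1.05 on arrays 2 and 4, and TIF35, another eIF3 subunit, 0.99 on array 2. FUN12, which codes for the subunit-joining factor eIF5B, had 2.86 on array 1. In a limma fit to features on at least 2 arrays, TIF1 had a mean of -0.59 ± 0.19 and TIF34 of -0.83 ± 0.31 (SD, n = 2), and neither passed (adjusted p = 0.272 and 0.163). The values of TIF35 and FUN12 have no replicate check, and that of FUN12 comes from the array that stood apart. Relative to the median of its block of probes, which had only 3 ratios on array 1, FUN12 had -3.83 there. TIF3, TIF4631, TIF4632, CDC33, TIF5, TIF11, SUI1, PAB1, RPG1, PRT1 and NIP1 had no ratio, nor did the termination factor genes SUP35 and SUP45.

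**Figure D2:**
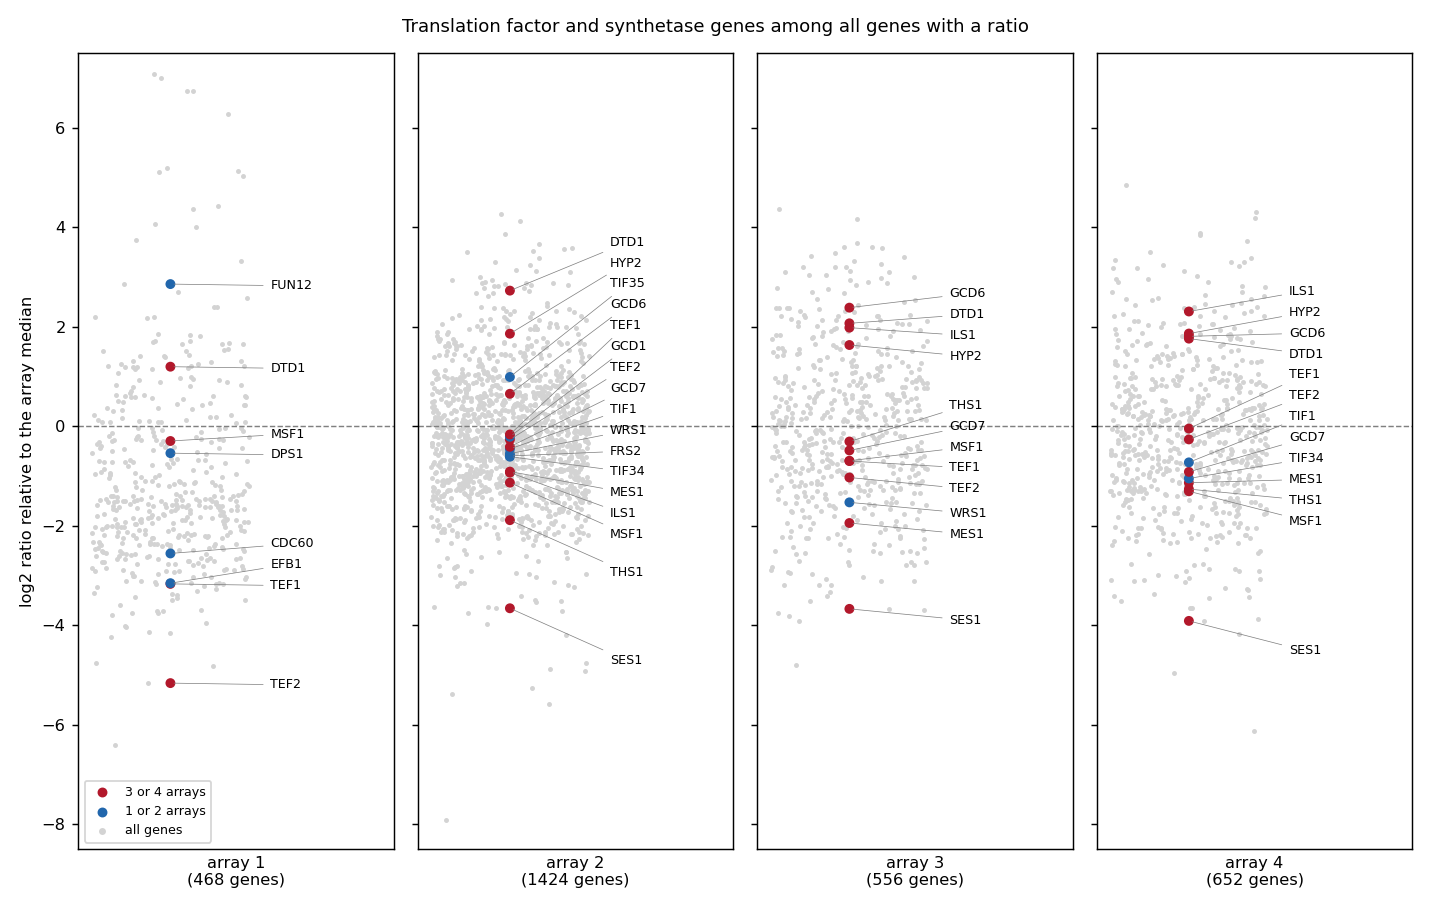
The log2 ratio relative to the array median of every gene with a ratio on each array (grey; horizontal position within a panel has no meaning), with the translation factor and synthetase genes named. Red genes had a ratio on 3 or 4 arrays and blue ones on 1 or 2, and 3 grey values lie outside the axis. SES1 lies at the lower end on arrays 2, 3 and 4, and HYP2 and DTD1 in the upper part.

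Of the cytosolic synthetase genes tested, SES1 and MES1 lay below the median, and ILS1 and THS1 were not called. SES1, which codes for the seryl-tRNA synthetase, had log2 ratios of -3.66, -3.67 and -3.92 on arrays 2, 3 and 4. On each of them it stood among the lowest genes, at percentiles 0.84, 1.08 and 0.61 of the genes with a ratio. The mean of -3.75 ± 0.14 (SD, n = 3) was 13.5-fold below the median (limma, adjusted p = 0.00381). It ranked 594 of 596 features from the top. Both probes gave the same picture, with means of -3.77 and -3.73 as features of their own. Centred within blocks SES1 had -2.69 ± 0.22 (SD, n = 3; limma, adjusted p = 0.00484). On the same arrays HYP2 exceeded SES1 by 5.52, 5.31 and 5.78, a mean of 5.54 ± 0.24 (SD, n = 3). This pair was compared after its values were seen, and its genes lie in different blocks. Centred within blocks the means were closer, at 0.42 for HYP2 and -2.69 for SES1.

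MES1, of the methionyl-tRNA synthetase, had -0.91, -1.95 and -1.14 on arrays 2, 3 and 4, all below the median. The mean was -1.33 ± 0.54 (SD, n = 3), 2.52-fold below the median (limma, adjusted p = 0.0242). On array 2 its probes gave 0.11 and -1.94, and arrays 3 and 4 had only the second, whose mean alone was -1.67 ± 0.47 (SD, n = 3). The call ended with a term for the channel assignment (limma, adjusted p = 0.0530) and without array 2, 3 or 4 (limma, adjusted p = 0.0503, 0.0865 and 0.0942).

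THS1, of the threonyl-tRNA synthetase, had -1.89, -0.31 and -1.26 on arrays 2, 3 and 4. All 3 were below the median, but they spread widely, and the mean of -1.15 ± 0.80 (SD, n = 3) was not called (limma, adjusted p = 0.0635). Different probes stand behind its arrays: array 2 had both, at -0.81 and -2.97, array 3 the first and array 4 the second. In limma fits without array 1, on which THS1 had no value, it passed at the same values (adjusted p = 0.0380), and only the variance shared across features and the adjustment over them differed. It also passed without array 3 (mean -1.58; adjusted p = 0.0474) and with arrays centred on genes with a ratio on all 4 (mean -1.34; adjusted p = 0.0430). Centred within blocks, THS1 had a mean of only -0.10 ± 1.02 (SD, n = 3) and did not pass (limma, adjusted p = 0.871). Its value on array 3 was then 0.90, above the block median.

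ILS1, of the isoleucyl-tRNA synthetase, changed side between arrays. It had -0.93 on array 2 and 1.98 and 2.31 on arrays 3 and 4. The value of array 2 came from 1 of its probes and those of arrays 3 and 4 from the other, so that array and probe cannot be told apart. The mean was 1.12 ± 1.78 (SD, n = 3; limma, adjusted p = 0.265). Without array 2 it was 2.14 and passed (limma, adjusted p = 0.0232). It was the only tested gene of the set that lay on both sides of the median on arrays 2 to 4. The other 10 of 11 kept to 1 side (90.9%), as did 74.6% of the 566 features with a ratio on all 3 of these arrays.

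Synthetase genes with fewer values lay below the median wherever they had a ratio. WRS1 (tryptophanyl) had -0.55 on array 2 and -1.53 on array 3, from different probes, and did not pass in the fit to features on at least 2 arrays (mean -1.04 ± 0.69, SD, n = 2; limma, adjusted p = 0.144). FRS2, the alpha subunit of the phenylalanyl enzyme, had -0.60 on array 2, and its partner FRS1 had none. On array 1 alone, DPS1 (aspartyl) had -0.54 and CDC60 (leucyl) -2.56. The median over all genes on array 1 was -1.51 on this scale, so DPS1 lay in the upper part of that array, at percentile 68.6. In all, 8 of the 10 genes of the set with a ratio on 1 or 2 arrays had only values below the median. The share among all genes with so few ratios was not counted. Because the centre came from genes on at least 3 arrays, the median over all genes with a ratio also lay below it. It was -1.51, -0.26, -0.11 and -0.19 on arrays 1 to 4, so the count is not read as a trait of the set. Of the genes of the set with a ratio, 76.5% lay below the median on array 2, against 59.8% of all genes. On array 3 the shares were 66.7% and 52.0%, and on array 4 they were 69.2% and 55.7%. On array 1 the order was the other way, with 75% of the genes of the set and 77.4% of all genes below. No test was made of these shares. ALA1, DED81, GRS1, GUS1, HTS1, KRS1, TYS1, VAS1 and the mitochondrial MSD1 had no ratio.

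MSF1 and DTD1 had a ratio on all 4 arrays. MSF1, the mitochondrial phenylalanyl-tRNA synthetase, had -0.30, -1.14, -0.70 and -1.31 on arrays 1 to 4. Each value was below the median, array 1 nearest to it. The mean of -0.86 ± 0.45 (SD, n = 4) was 1.81-fold below the median (limma, adjusted p = 0.0319), and -1.05 ± 0.32 (SD, n = 3) without array 1. With the arrays of each title code averaged first, the mean was the same and the call ended (n = 2; limma, adjusted p = 0.121). The call also ended when centred within blocks (mean -0.60, limma, adjusted p = 0.130). Centred on the median over every probe, the mean was -0.41 ± 1.08 (SD, n = 4) and did not pass (limma, adjusted p = 0.491). Nor did MSF1 pass without array 2, 3 or 4 (limma, adjusted p = 0.0913, 0.0824 and 0.163). This call was the least steady of the 6, holding in 10 of 20 repeats under other settings (adjusted p from 0.0113 to 0.995, limma). Against the median over all genes of array 1, at percentile 72.2, it would lie above on that array.

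DTD1 had 1.20, 2.73, 2.07 and 1.76 on arrays 1 to 4, all above the median. The mean of 1.94 ± 0.64 (SD, n = 4) was a 3.83-fold ratio relative to the median (limma, adjusted p = 0.00575). Its probes differed by at most 0.47, and it was called with either probe (means 1.89 and 1.99), without array 1 (mean 2.19 ± 0.49, SD, n = 3) and centred within blocks (mean 2.17; limma, adjusted p = 0.0104). In the fit to features on all 4 arrays, which holds TEF1, TEF2, MSF1 and DTD1 of the set, DTD1 was called and MSF1 was not (limma, adjusted p = 0.114).

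**Figure D3:**
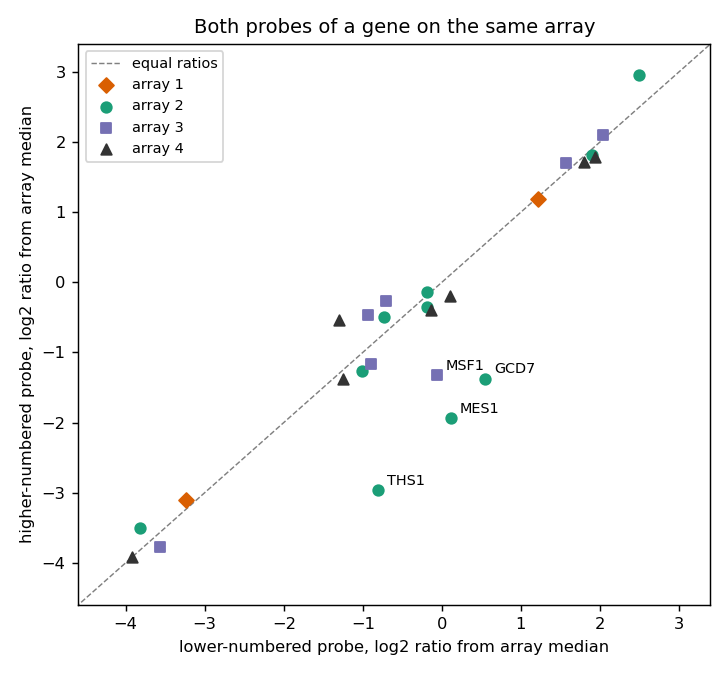
Log2 ratios relative to the array median of the lower-numbered (horizontal axis) and higher-numbered (vertical axis) probe of each gene of the set with both probes measured on an array. Points on the dashed line have equal ratios, and the 4 named points differ by more than 1. HYP2, SES1 and DTD1 lie along the line at its ends.

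How well the 2 probes of a gene agreed differed within the set. On array 2, 10 genes of the set had both probes measured, with a median difference of 0.28 and a largest of 2.16 (THS1), against a median of 0.53 over 729 genes. On array 3 the median was 0.27 over 7 genes of the set and 0.36 over 292 genes, and on array 4 it was 0.14 and 0.35. The differences above 1 belonged to GCD7, MES1 and THS1 on array 2 and to MSF1 on array 3. HYP2, SES1 and DTD1 differed by at most 0.47.

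**Figure D4:**
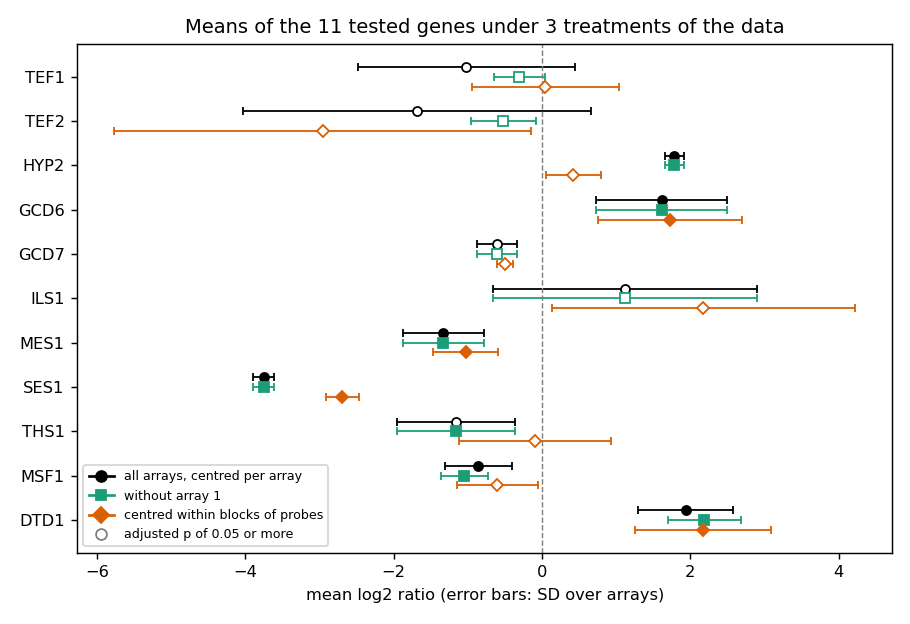
Mean log2 ratio relative to the centre used (horizontal axis; error bars are SD over arrays) of the 11 tested genes with all arrays (black), without array 1 (green) and centred within blocks of 400 consecutive probes (orange). Filled symbols passed an adjusted p of 0.05 in limma. The 7 genes with no ratio on array 1 have the same mean in black and green. HYP2 has 0.42 with block centring against 1.79 without it, and SES1, MES1, GCD6 and DTD1 are called under both.

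The tested genes lay mostly in runs of consecutive probe numbers where many probes had a ratio, with exceptions on both sides. In the block of 400 probes around each tested gene, a median of 48.25% of the probes had a ratio on array 2, against 7.25% around the 35 genes with none. The median over all 32 blocks was 11.5%. Genes were tested because they had ratios, so tested genes of any set would tend to lie in such blocks. The share around all tested genes was not computed. The blocks around tested genes ranged from 4% (TEF2) to 56.25%, and those around genes with none from 1.25% to 80.25%. SUP45 lay in the block with the most ratios and CDC33 in that of SES1, both without a ratio. ILS1, SES1, THS1 and FRS2 shared a block, as did GCD6 and GCD7, so the block centring shifts the genes within each of these groups alike except where their arrays or probes differ. Of the genes measured on array 1 alone, EFB1 and CDC60 shared a block with 142 ratios on array 1 and 46, 20 and 19 on arrays 2, 3 and 4. DPS1 lay in the block of MSF1, with 26 ratios on array 1 and 60, 33 and 35 on arrays 2, 3 and 4. FUN12 lay in a block with 3 ratios on array 1 and 58, 35 and 36 on arrays 2, 3 and 4. The rule by which spots lack a ratio is not given in the sources used here, and its part in these results was not tested.

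Of 62 other genes of translation with a probe, 5 were tested: GIR2, NEW1 and DED1 were called above the median, 0 below, and YDR341C and HEF3 were not called, against a background of 22.5% above and 25.2% below. The median of the 5 means was 0.77, against -0.0047 over all features. A further 11 had a ratio on 1 array each, from -2.36 (PTH1) to 1.20 (DYS1), of which 7 lay below the median: 5 of 6 on array 1 and 2 of 5 on array 2. Of all genes with a ratio, 77.4% lay below it on array 1 and 59.8% on array 2. GIR2, a partner of the GTPase Rbg2, had log2 ratios of 1.56, 2.23 and 2.54 on arrays 2, 3 and 4, a mean of 2.11 ± 0.50 (SD, n = 3; limma, adjusted p = 0.00691). NEW1, an ATPase related to eEF3, had 1.32, 1.57 and 2.46, a mean of 1.78 ± 0.60 (SD, n = 3; limma, adjusted p = 0.0132). Every value of GIR2 and NEW1 lay above the median. Without array 4 both calls ended (limma, adjusted p = 0.0512 for GIR2 and 0.0700 for NEW1). GIR2 and DED1 were each measured by 1 of their 2 probes.

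DED1, the RNA helicase of scanning, had 0.53, 0.92 and 0.86, a mean of 0.77 ± 0.21 (SD, n = 3; limma, adjusted p = 0.0466), and -0.02 when centred within blocks (limma, adjusted p = 0.957). Its call also ended when the title code was fitted as a random block (limma, adjusted p = 0.0522) or averaged over (limma, adjusted p = 0.106), and without array 2, 3 or 4 (limma, adjusted p = 0.0758, 0.181 and 0.250). YDR341C, the cytosolic arginyl-tRNA synthetase, had 0.67, 0.41 and 0.92, a mean of 0.67 ± 0.26 (SD, n = 3; limma, adjusted p = 0.0708). Of the 6 synthetase genes tested in all, it and ILS1 had a mean above the median. HEF3, the second gene for eEF3, had a mean of 0.61 ± 0.36 (SD, n = 3; limma, adjusted p = 0.110). Centred within blocks it had 1.84 ± 0.55 (SD, n = 3) and was called above (limma, adjusted p = 0.0133).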

How the data were processed

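The authors deposited a log10 ratio of the 2 channels for each probe with a value. How they corrected, normalized and filtered the spots is not given in the sources used here. Ratios were converted to log2, and the 2 repeated rows were averaged with the first row of their probe. Probes were named through the platform annotation (11138 with 1 gene symbol, 0 with several, 1662 with none), and 11128 Entrez identifiers matched the reference gene table. A gene's value on an array was the mean of its probes.

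Arrays were centred on the median over genes with a ratio on at least 3 arrays, and features with both channel assignments on at least 3 arrays were tested with lmFit and eBayes (limma 3.58.1, R 4.3.3), which was tested on simulated data. The alternatives were other centrings and scalings, a stricter and a looser limit on missing ratios, a channel term, the title code as a block (statmod 1.5.0) or averaged, turned signs, single probes, robust variances and each array left out. Leaving out array 1 with arrays 2 to 4 complete was added after the data were seen. Python 3.11.15, numpy 2.4.6, pandas 2.3.3 and matplotlib 3.10.9 did the rest.

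Every gene of the set was named, with values where it had any, as were the other translation genes tested. The genes, the second list and the tests were chosen with earlier results of these data known. From the second list RRS1 was left out, because its probes belong to another locus than the synthetase YDR341C, for which RRS1 is an older name. The array number limits the precision, and depth is known only as the probes with a ratio.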

Additional observations from a re-analysis of the deposited data

Results flagged for a closer look

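TEF2 on array 1, at a log2 ratio of -5.17 relative to the array median, lay far from its other arrays by Dixon's test for 4 values (ratio 0.844, above the 95% critical value). It was measured there by 1 probe. The same gap for TEF1 gave 0.791, below that value. Chance flags about 1 in 20 such groups, and 4 genes of the set had the 4 values needed.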

How the results depend on the processing

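No paired analysis was possible because all 4 arrays belong to 1 group and replicate numbers pair nothing. The title code joins arrays 1 and 3 and arrays 2 and 4: as a random block it ended no call of the set, and averaged it ended that of MSF1 (adjusted p = 0.121, limma), with the other translation genes at 2 above under both. Of 207 repeats of the 11 means, 169 kept direction and side of the threshold, 23 lost a call, 6 gained one and 9 changed direction. Many repeats could not change a mean. The 7 genes on 3 arrays had no ratio on array 1, so leaving it out kept their means. The fits with robust variances or another limit on missing ratios used the same values. The 169 is therefore not a measure of how steady the means were. Counts below are above and below the median, by limma, against 3 and 3 of the set, 134 and 150 of all features, and 3 and 0 of the other translation genes. Without centring they were 0 and 0 (at an unadjusted p under 0.05, 0 and 2), 0 and 0 (0 and 52), and 0 and 0. With the signs of arrays 3 and 4 turned they were 0 and 0 (0 and 1), 0 and 0 (0 and 1), and 0 and 0. With features on all 4 arrays they were 1 and 0 of 4 (1 and 1), and 13 and 8 of 80. Centred on genes on all 4 arrays, 5 of the set lay below, as GCD7 and THS1 passed. Centred within blocks, 99 features lay below. Among single probes 209 lay above. With 1 array left out, counts ran from 1 to 4 and 1 to 4 for the set, from 45 to 168 and 41 to 174 for all features, and from 0 to 4 above for the other translation genes, lowest without array 4 in each case except that without array 2 also left 1 of the set below. With signs turned the means were -1.18 for GCD6, 0.33 for GCD7, -0.55 for HYP2, -1.74 for ILS1, 0.72 for MES1, 0.14 for MSF1 and 1.31 for SES1. ILS1 had -0.078 without centring and TEF1 0.046 centred within blocks. Where no cause is named, the cause was not tested. The centre moved the median of all features by more than 0.1: it was 0.17 with the median over every probe, -0.18 with genes on all 4 arrays and -1.19 without centring, against -0.0047. Signal over background was not used here, so dim spots could not be told from bright ones.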
